A study of Mus musculus with 6 samples.

Results

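Flavin-containing monooxygenases (FMO) and molybdenum oxidases are enzymes of oxidative metabolism, some of which work beside the cytochromes P450. The 8 genes described here are 4 FMO genes (Fmo1, Fmo2, Fmo4 and Fmo5) and 4 genes of enzymes that carry a molybdenum cofactor (Aox1, Aox3, Xdh and Suox). They were taken by gene symbol from a table of 30889 genes, in which each symbol matched 1 row. The samples are 6 mouse liver RNA libraries after 14 days of treatment by mouth, 3 from mice given a water extract of the herb Emilia sonchifolia (extract) and 3 from mice given phosphate buffered saline (control). Strain, sex, age and dose are not given in the sources used here, and the labels do not tie each library to an animal of its own. The p-values therefore rest on the variation among these 3 against 3 libraries, part or all of which may be technical. The deposited table gives 2 values per gene and library, an estimated read count and FPKM (a level scaled to gene length and to the fragments mapped in that library).

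FMO enzymes sit in the membrane of the endoplasmic reticulum, take electrons from NADPH through a bound FAD, and add oxygen to nitrogen and sulfur atoms of drugs, plant amines and diet-derived molecules. Aldehyde oxidases (Aox1, Aox3) and xanthine dehydrogenase (Xdh) are cytosolic enzymes with a molybdenum cofactor, iron-sulfur clusters and FAD. The first oxidise aldehydes and nitrogen-containing aromatic rings, and the second turns hypoxanthine into xanthine and xanthine into urate. Sulfite oxidase (Suox) uses the same metal in the space between the mitochondrial membranes to turn sulfite into sulfate, the last step of the breakdown of sulfur amino acids.

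Of the 8 genes, 7 were higher with the extract by edgeR's quasi-likelihood test at an adjusted p under 0.05, and Suox did not pass. The FPKM of the groups did not overlap for those 7, where 44.6% of all genes tested did not overlap, 17.7% with the extract higher. By edgeR 0 were lower, likewise 0 at an unadjusted p under 0.05 and 0 by DESeq2 or limma. The same test called 26.9% of the 18071 genes tested, 14.2% as higher and 12.8% as lower. Of the genes called, 52.6% were higher by edgeR with TMM scaling, 43.9% with upper-quartile factors and 42.8% with library totals only. Limma on FPKM gave 40.7%, the same limma fit with no genes filtered out 39.6%, and limma on TMM-scaled FPKM 50.3%. The share thus differed between scalings within edgeR and within limma. The aldehyde oxidases and Fmo2 had the largest changes among the 8, between 1.79-fold and 2.15-fold. Fmo1 and Fmo5 rose less, and the calls of Fmo4 and Xdh were close to the threshold. The median log2 fold change was 0.41 over the 4 FMO genes and 0.51 over the 4 molybdenum oxidases, beside -0.02 over all genes tested.

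The libraries held 51219533 to 61432016 estimated counts, and each of the 8 genes had at least 764 counts in every library. The read pairs may be fewer, since 1 pair may add about 4 counts. Liver markers were present, with a summed FPKM of 7 hepatocyte genes of 35100 to 35600 in extract libraries and 35200 to 43700 in control libraries. Of those 7 hepatocyte markers, 3 were higher and 3 lower with the extract. Markers of several other cell types were lower. All 8 Kupffer cell markers passed as lower (summed FPKM 204 to 219 in extract libraries, 341 to 349 in control libraries), all 6 red cell markers (198 to 236 in extract, 1270 to 1620 in control), 6 of 8 leukocyte markers (25.4 to 35.3 in extract, 68.9 to 112 in control) and 4 of 7 sinusoidal endothelial markers (35.4 to 38.8 in extract, 45.1 to 49.1 in control). The part of these shifts in the results was not tested, and in whole tissue fewer cells of a type and less RNA per cell cannot be told apart. Of 6 stellate cell markers 2 were higher and 1 lower, 1 of 5 cholangiocyte markers was lower, and 1 of 3 gut epithelium markers was lower. Markers of exocrine pancreas and skeletal muscle were uneven: control 3 had a summed pancreas FPKM of 39.0, against 0.231 and 0.681 in the other control libraries and 39.0 to 47.0 in extract libraries. Its summed muscle FPKM was 0.457, against 77.7 and 101 in the other control libraries and 86.0 to 132 in extract libraries.

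**Figure D1:**
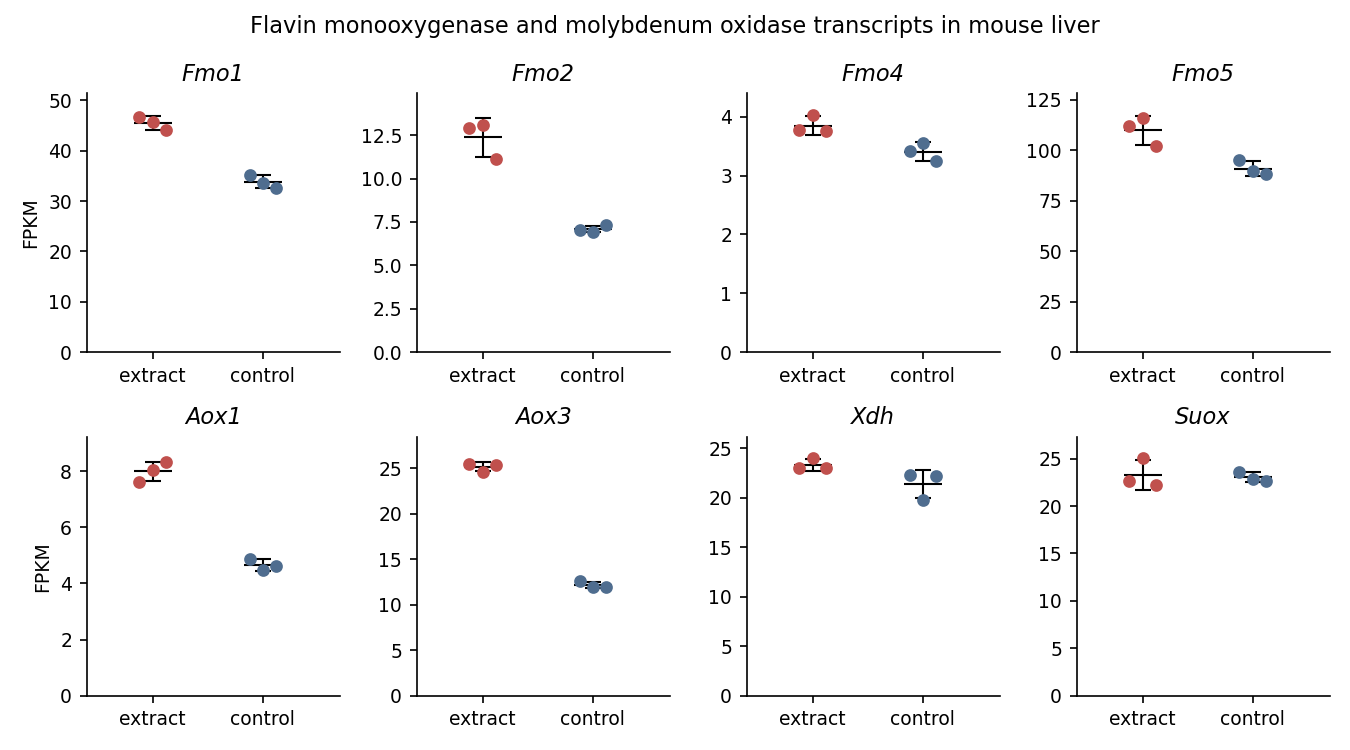
FPKM of the 8 genes in each library. Points are single libraries (3 extract, red; 3 control, blue), and the bar with whiskers is the mean ± SD. The groups do not overlap for 7 genes and overlap for Suox, at 22.2 to 25.1 FPKM in extract libraries and 22.6 to 23.6 FPKM in control libraries.

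Aox3 changed most. Its enzyme is the main aldehyde oxidase of mouse liver, and the gene (ENSMUSG00000064294) lies on the plus strand of chromosome 1, gene span 58113130 to 58200698. This and the other spans are on GRCm38, where the table and GENCODE release M21 give the same start and end for each of the 8 genes. Aox3 had 25.5, 24.6 and 25.4 FPKM in extract libraries, against 12.6, 12 and 12 FPKM in control libraries. Every extract library was above every control library, and the spread within each group was small beside the gap. Its log2 fold change was 1.10 ± 0.05 (SE; adjusted p = 5.42e-06 by edgeR), or 2.15-fold with a 95% interval of 2 to 2.31. Aox1, whose enzyme acts on similar substrates, lies on the same strand 6716 bases before Aox3 (ENSMUSG00000063558, chromosome 1, gene span 58029931 to 58106413). Its FPKM was 7.62, 8.03 and 8.31 in extract libraries and 4.88, 4.46 and 4.61 in control libraries. The groups again did not overlap, and the log2 fold change was 0.84 ± 0.06 (SE; adjusted p = 6.20e-05 by edgeR). Aox1 and Aox3 remained past the threshold in each of the 18 other fits, with log2 fold changes of 0.67 to 0.89 for Aox1 and 0.98 to 1.13 for Aox3.

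Aox3 was the more abundant of the pair in both groups, and the ratio of their levels was higher in every extract library than in any control library. The ratio of Aox3 to Aox1 FPKM was 3.34, 3.06 and 3.06 in extract libraries and 2.59, 2.69 and 2.61 in control libraries. An exact two-sided permutation test of 3 against 3 cannot go below p = 0.1, which is the value it gave, before and after adjustment over the 4 ratios compared. The pair summed to 33.1 ± 0.554 FPKM in extract libraries and 16.9 ± 0.571 FPKM in control libraries (SD, n = 3 each). Aox3 made up 75.9% ± 0.930 of that sum with the extract and 72.4% ± 0.402 in control.

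The 2 further aldehyde oxidase genes of the same chromosome 1 cluster were next to silent. Aox4 and Aox2 follow Aox3 on the same strand, with gaps of 9698 and 9728 bases, and the 4 genes span 350.3 kb. Aox4 averaged 0.0249 ± 0.0431 FPKM in extract libraries and 0.0219 ± 0.0379 FPKM in control libraries (SD, n = 3 each). Aox2 averaged 0.00750 ± 0.0130 FPKM in extract libraries and 0.0140 ± 0.00355 FPKM in control libraries. Neither passed the filter on low counts, so neither was tested.

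Sequence upstream of the 3 genes that changed most is shown because Aox1 and Aox3 are neighbours that moved together and Fmo2 moved by a similar amount. The sequences are from RefSeq on GRCm38.p6, on the strand of the gene, and each ends before the first start that RefSeq or GENCODE gives. They cover chr1:58029719-58029930 (plus strand) for Aox1, chr1:58112886-58113129 (plus strand) for Aox3 and chr1:162898759-162899008 (minus strand) for Fmo2. Capitals mark TGACTCA, the motif bound by AP-1 type factors.
Aox1: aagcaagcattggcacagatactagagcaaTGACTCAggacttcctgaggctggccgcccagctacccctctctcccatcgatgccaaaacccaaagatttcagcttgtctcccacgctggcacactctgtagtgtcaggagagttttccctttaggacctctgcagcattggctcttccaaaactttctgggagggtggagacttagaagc
Aox3: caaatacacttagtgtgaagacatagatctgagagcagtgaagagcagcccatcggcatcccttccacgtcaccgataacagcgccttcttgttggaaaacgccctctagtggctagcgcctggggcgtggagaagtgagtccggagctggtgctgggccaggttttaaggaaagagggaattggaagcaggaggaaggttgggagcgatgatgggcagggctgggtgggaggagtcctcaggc
Fmo2: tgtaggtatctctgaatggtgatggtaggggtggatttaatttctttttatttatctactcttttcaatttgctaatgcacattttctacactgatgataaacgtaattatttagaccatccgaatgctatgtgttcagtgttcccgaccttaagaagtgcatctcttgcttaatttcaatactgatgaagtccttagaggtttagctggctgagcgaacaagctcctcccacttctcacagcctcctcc
A promoter entry was found for 6 of the 8 genes (not Fmo1 or Xdh), 7 entries in all since Fmo2 has 2 starts. The 250 bases before each start were searched on both strands for 6 motifs: TGACNNNGC (antioxidant response element core), TTCNNNGAA (STAT5 type), AGGTCA (nuclear receptor half-site), CACGTG (E-box), TCACNCCAC (sterol response element type) and TATAAA (core of the box bound by the general transcription machinery). Neither Aox1 nor Aox3 held any of the 6 motifs in its window, which says only that these letters are not in these bases. AGGTCA was found 9 bases before the other Fmo2 start, and on the opposite strand 75 bases before the Fmo4 start. TATAAA was found on the opposite strand 195 bases before the Fmo5 start. Among all 32851 promoter windows of that length, 14.0% held AGGTCA, 12.4% TATAAA, 10.2% TGACNNNGC, 7.0% TTCNNNGAA, 6.0% CACGTG and 1.1% TCACNCCAC. TGACTCA was looked for only after the windows had been read. It was found 220 bases before the RefSeq start of Aox1 and in 4.5% of all windows, and it shares its first 4 letters with TGACNNNGC.

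Xdh changed little. The gene (ENSMUSG00000024066) lies on the minus strand of chromosome 17, gene span 73883895 to 73950196. Its FPKM was 23.0, 24 and 23 in extract libraries and 22.3, 19.8 and 22.2 in control libraries. The groups did not overlap, though the lowest extract and highest control values lay close together, and control 2 was the lowest library. The log2 fold change was 0.19 ± 0.06 (SE; adjusted p = 0.0447 by edgeR). The call was lost without extract 1, 2 or 3 (edgeR adjusted p = 0.0759, 0.135 and 0.109) and without control 2 (0.0798), where the log2 fold change was 0.12. It passed in 5 of the 18 other fits.

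Suox, on the minus strand of chromosome 10 (ENSMUSG00000049858, gene span 128669894 to 128674073), had 22.6, 25.1 and 22.2 FPKM in extract libraries and 23.6, 22.9 and 22.6 FPKM in control libraries. The groups overlapped. Its fold change was 1.05 with a 95% interval of 0.967 to 1.15 (edgeR adjusted p = 0.346), so a change larger than 1.15-fold lies outside that interval. Suox passed the threshold in 0 of the 18 other fits, the DESeq2 and limma fits included. Aox3 and Xdh carry the same kinds of cofactor. The ratio of Aox3 to Xdh FPKM was 1.11, 1.02 and 1.10 in extract libraries and 0.568, 0.606 and 0.542 in control libraries. These did not overlap (exact two-sided permutation test, p = 0.1, the smallest possible here). The order of levels among Aox3, Xdh and Suox was as follows. In extract libraries Aox3 was above Xdh without overlap, while the values of Suox, 22.2 to 25.1 FPKM, overlapped those of both. In control libraries the order was Suox, Xdh and then Aox3, with no overlap between neighbours.

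**Figure D2:**
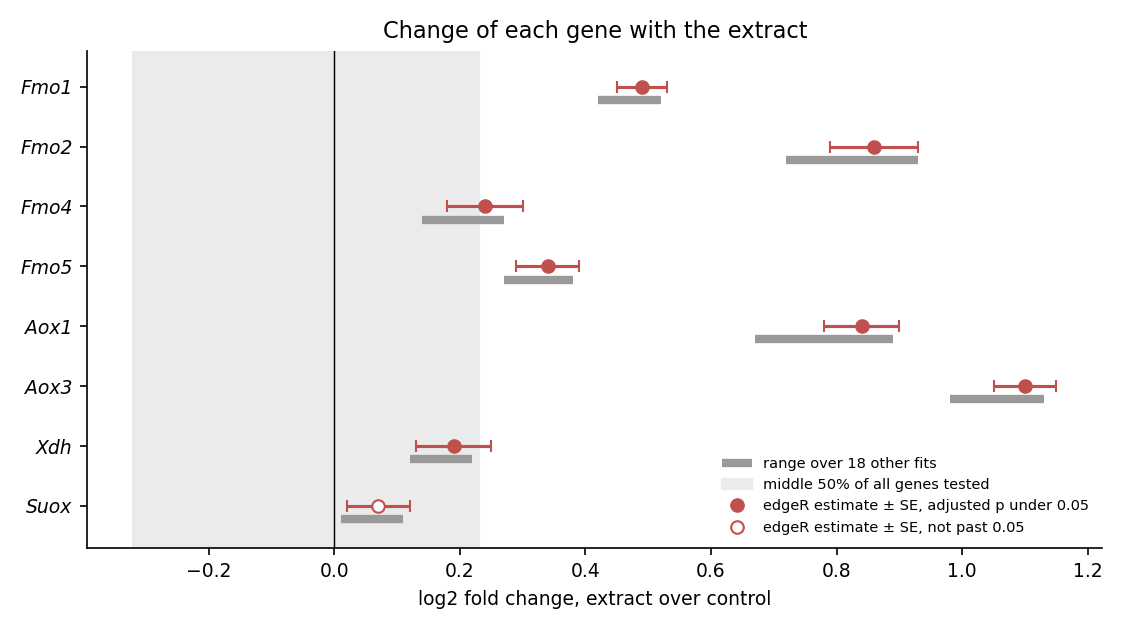
Log2 fold change of each gene, extract over control. Circles with whiskers are the edgeR estimate ± SE, filled where the adjusted p is under 0.05, grey bars the range over 18 other fits, and the shaded band the middle 50% of all 18071 genes tested (-0.32 to 0.23). Aox3, Fmo2 and Aox1 lie at 1.10, 0.86 and 0.84, while Xdh at 0.19 and Suox at 0.07 lie inside the band.

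Among the FMO genes, Fmo2 changed most. Its enzyme is known as the main FMO of the lung in many mammals. The gene (ENSMUSG00000040170) lies on the minus strand of chromosome 1, gene span 162874317 to 162898726. Fmo2 had 12.9, 13.1 and 11.1 FPKM in extract libraries, against 7.05, 6.93 and 7.30 FPKM in control libraries. The groups did not overlap, and the log2 fold change was 0.86 ± 0.07 (SE; adjusted p = 9.20e-05 by edgeR), or 1.82-fold. The 3 lung markers in the table summed to between 0 and 0.0669 FPKM in extract libraries and between 0.0202 and 0.0658 FPKM in control libraries, and none of them passed the filter on low counts.

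Fmo1 oxidises a wide range of amines and sulfides and, in mice, also makes taurine from hypotaurine. It lies 7706 bases from Fmo2 on the same strand (ENSMUSG00000040181, chromosome 1, gene span 162829561 to 162866610). Its FPKM was 46.7, 45.8 and 44.1 in extract libraries and 35.2, 33.6 and 32.7 in control libraries. The groups did not overlap, and the log2 fold change was 0.49 ± 0.04 (SE; adjusted p = 0.000139 by edgeR), or 1.40-fold. Fmo1 is also a gene of the mouse kidney, and the 5 kidney markers summed to 2.58 to 3.05 FPKM in extract libraries and 2.01 to 2.77 FPKM in control libraries. Of the 4 tested, Slc34a1 had the smallest adjusted p by edgeR (0.110), at 1.43-fold with a 95% interval of 1.02 to 2.01 and overlapping groups. Umod was at 1.16-fold, Slc12a1 at 0.936-fold and Aqp2 at 0.564-fold. Any part of kidney RNA in the change of Fmo1 was not tested.

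Fmo5 inserts oxygen beside a carbonyl group, a reaction unusual in this family. The gene stands apart from the others on the plus strand of chromosome 3 (ENSMUSG00000028088, gene span 97628804 to 97655282). It was the most abundant of the 8, at 112, 116 and 102 FPKM in extract libraries and 95, 89.6 and 88.1 FPKM in control libraries. The groups did not overlap, and the log2 fold change was 0.34 ± 0.05 (SE; adjusted p = 0.00214 by edgeR), or 1.26-fold. Fmo1, Fmo2 and Fmo5 passed in all 18 other fits, with log2 fold changes of 0.42 to 0.52, 0.72 to 0.93 and 0.27 to 0.38 in turn.

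Fmo4, whose enzyme is little studied, was the least abundant of the 8. It lies 15588 bases from Fmo1 (ENSMUSG00000026692, chromosome 1, minus strand, gene span 162793188 to 162813972). Its FPKM was 3.77, 4.03 and 3.75 in extract libraries and 3.41, 3.56 and 3.24 in control libraries. The groups did not overlap, and the log2 fold change was 0.24 ± 0.06 (SE; adjusted p = 0.0285 by edgeR). The call was lost when any single library was left out, at edgeR adjusted p-values of 0.0526 to 0.103, and Fmo4 passed in 3 of the 18 other fits.

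Fmo4, Fmo1, Fmo2 and Fmo6 sit side by side over 144.3 kb, all on the minus strand, and along the chromosome the log2 fold changes of the 3 tested genes were 0.24, 0.49 and 0.86. Fmo6 was at 0 FPKM in all extract libraries and averaged 0.0377 ± 0.0394 FPKM in control libraries (SD, n = 3), and was not tested. Prrc2c, the nearest tested gene on the Fmo4 side, had a log2 fold change of 0.30 ± 0.05 (SE; adjusted p = 0.00384 by edgeR). Sgo2a, the nearest tested gene on the Aox1 side of the aldehyde oxidase genes, had 0.75 ± 0.36 (SE; adjusted p = 0.161 by edgeR). It averaged only 0.102 FPKM in extract libraries and 0.0619 FPKM in control libraries. Both neighbours were taken for their position after the values of the clusters were seen. The nearest tested genes on the far sides of the clusters are not given here.

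**Figure D3:**
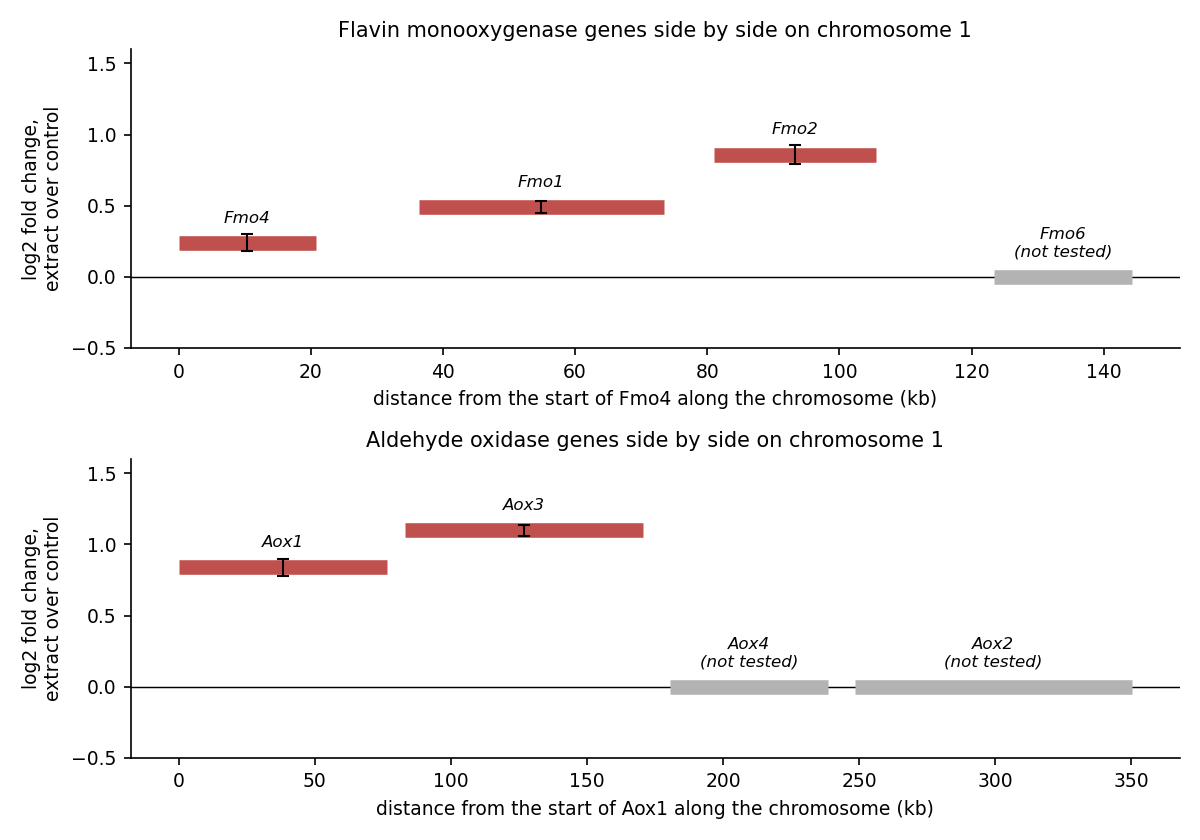
Log2 fold change (extract over control) of neighbouring FMO genes (top) and aldehyde oxidase genes (bottom) against their distance in kb from the start of the first gene. Each bar spans the gene, whiskers are ± SE, dark red marks an adjusted p under 0.05, and grey genes were not tested and are drawn at 0 only to show their place. Fmo4, Fmo1 and Fmo2 lie above 0 at 0.24, 0.49 and 0.86, and Aox1 and Aox3 at 0.84 and 1.10.

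The 4 listed FMO genes differed widely in level. Fmo5 held 64.1% ± 0.728 of their summed FPKM in extract libraries and 67.2% ± 0.310 in control libraries, Fmo1 26.5% ± 0.894 and 25% ± 0.144, and Fmo2 7.18% ± 0.283 and 5.25% ± 0.278 in the same order of groups (SD, n = 3 each). Fmo4 held 2.24% ± 0.0877 with the extract and 2.52% ± 0.130 in control. The ratio of Fmo2 to Fmo1 was 0.277, 0.286 and 0.251 in extract libraries and 0.201, 0.206 and 0.223 in control libraries, and that of Fmo1 to Fmo5 was 0.417, 0.394 and 0.430 in extract libraries and 0.370, 0.376 and 0.371 in control libraries. Neither ratio overlapped between groups (exact two-sided permutation tests, p = 0.1 each, the smallest possible here). The summed FPKM of the 4 genes was 172 ± 9.41 in extract libraries and 135 ± 4.86 in control libraries.

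For each gene, the genes with the most similar course over the 6 libraries were sought among 4541 genes of at least 5 FPKM on average, by the root mean square difference of centred log2(FPKM + 0.5). These are descriptions over 6 libraries in 2 groups, so any gene with a like shift and low spread can rank high. Nearest to Aox3 were B3galt1 (difference 0.043) and, closer still, Tgm1 (0.021), at 10.3, 10.3 and 10.4 FPKM in extract libraries and 5.03, 4.73 and 4.64 FPKM in control libraries. Nearest to Aox1 were Rnf213 (0.025) and Acsf2 (0.035), and nearest to Fmo2 were Slc16a5 (0.046) and Prox1 (0.058). Fmo1 had Pcyt1a (0.017) and Slc26a1 (0.026) nearest, Fmo5 Map2k3 (0.026) and Commd3 (0.03), and Fmo4 Ido2 (0.018) and Rnpepl1 (0.021). For Xdh the nearest were Jak1 and Zhx1 (0.021 each) and for Suox Pja1 (0.022) and Stra6l (0.023).

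Genes of the pathways around these enzymes were counted in 8 lists with 70 genes in the table. Of the 67 tested, 19 were higher, 16 were lower and 32 did not pass. Over all 18071 genes tested, 14.2% were higher and 12.8% lower, and the counts of each list below stand beside these shares. Of 6 genes of molybdenum cofactor synthesis 3 were higher, with a list median of 0.10 on the log2 scale. Mocos, which adds the sulfur that aldehyde oxidases and Xdh need on their molybdenum, was at 9.20, 9.15 and 9.78 FPKM in extract libraries and 7.51, 7.86 and 8.10 FPKM in control libraries. Its log2 fold change was 0.32 ± 0.06 (SE; adjusted p = 0.00677 by edgeR). Gphn, which inserts the metal, and Nfs1, a sulfur donor, rose 1.2-fold and 1.18-fold, the first not called without extract 2 (edgeR adjusted p = 0.0535) or control 2 (0.0664), nor by limma on FPKM with no genes filtered out (adjusted p = 0.0934). Mocs1, an enzyme at the start of the pathway, was at 25.4 ± 0.943 FPKM in extract libraries and 28.2 ± 0.319 FPKM in control libraries (edgeR adjusted p = 0.156, limma on FPKM 0.0328), and passed as lower in 6 of the 18 other fits. Mtarc1 and Mtarc2, the molybdenum enzymes of the outer mitochondrial membrane, overlapped between groups (edgeR adjusted p = 0.440 and 0.216).

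Electron and flavin supply moved unevenly. Of 8 genes listed under NADPH supply and microsomal electron donors, 5 were higher and 1 lower, with a median of 0.37. The 5 include Cyb5b, which is mitochondrial, while Cyb5a was not called (log2 fold change -0.04, adjusted p = 0.458 by edgeR). Me1, malic enzyme, averaged 15.4 ± 0.591 FPKM in extract libraries and 8.49 ± 0.776 FPKM in control libraries (SD, n = 3 each), a rise of 1.89-fold. Cytosolic Idh1 rose 1.48-fold, the P450 electron donor Por 1.42-fold and the mitochondrial cytochrome Cyb5b 1.61-fold. G6pdx, which opens the pentose phosphate pathway, was lower (log2 fold change -0.64). Of 5 genes of flavin supply, 1 passed, Slc25a32, a mitochondrial carrier, which averaged 4.16 ± 0.189 FPKM in extract libraries and 7.21 ± 0.586 FPKM in control libraries and had a log2 fold change of -0.73 ± 0.07 (SE; adjusted p = 0.000240 by edgeR). Rfk and Flad1, which make FMN and FAD, had adjusted p-values of 0.0931 and 0.132 by edgeR, and each passed without 1 library, Rfk without control 3 (0.0117) and Flad1 without control 1 (0.0173). The riboflavin transporters Slc52a2 and Slc52a3 were near or under 1 FPKM and overlapped between groups.

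Around Xdh, 4 of 15 genes listed under purine breakdown were higher and 5 lower, with a median of -0.01. The 4 that rose were Nt5e, which makes adenosine from AMP, at 5.22 ± 0.179 FPKM in extract libraries and 2.80 ± 0.0644 FPKM in control libraries, Gda (1.68-fold), which turns guanine into xanthine, Pnp (1.64-fold), which releases hypoxanthine and guanine, and Urad (1.75-fold), which acts after urate. Uox, the urate oxidase that rodents use to break down the product of Xdh, was at 268, 270 and 244 FPKM in extract libraries and 344, 326 and 340 FPKM in control libraries. It was lower, with a log2 difference of -0.31 ± 0.05 (SE; adjusted p = 0.00231 by edgeR). The other lower genes were Ada (0.512-fold), Ampd3 (0.618-fold), Aprt (0.757-fold) and Nt5c (0.801-fold). Of 6 urate transporters 2 rose, Slc17a1 (1.27-fold) and Slc17a2 (1.16-fold). The transporters Abcg2 and Slc2a9 did not pass (edgeR adjusted p = 0.0667 and 0.0991), though Abcg2 passed by DESeq2 (adjusted p = 0.0499) and without control 1 (edgeR adjusted p = 0.0248). Abcg2 was at 4.69, 4.53 and 4.15 FPKM in extract libraries and 4.37, 3.96 and 3.74 FPKM in control libraries.

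Around Suox, 2 of 11 tested genes of sulfur amino acid and sulfide oxidation were higher and 6 lower, with a median of -0.23. Csad, which makes the hypotaurine that Fmo1 can oxidise, had 44.7, 41.9 and 42.2 FPKM in extract libraries, against 12.3, 13.0 and 14.8 FPKM in control libraries. Its log2 fold change was 1.75 ± 0.08 (SE; adjusted p = 6.72e-06 by edgeR). Cdo1, the step before Csad, was at 461 ± 16.4 FPKM in extract libraries and 563 ± 31.2 FPKM in control libraries (SD, n = 3 each). It fell by 0.23 on the log2 scale, and was not called without extract 1 (edgeR adjusted p = 0.0588) or extract 3 (0.0549). Ethe1, a mitochondrial enzyme that makes sulfite, fell by 0.91 and Cbs, which starts transsulfuration, by 0.46. Got2, which can act on cysteine sulfinate on the way to sulfite, fell by 0.26. The number of lower genes over the 8 lists was 10 without extract 1.

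In the list of nicotinamide and tryptophan to NAD, 3 of 14 genes were higher and 3 lower. Nnmt, whose product N-methylnicotinamide is a substrate of aldehyde oxidases, was at 65.0, 71.9 and 59.6 FPKM in extract libraries and 55.9, 67.5 and 85.1 FPKM in control libraries, with overlap (edgeR adjusted p = 0.914). Nampt, which recycles nicotinamide, rose 1.67-fold and Afmid, the kynurenine formamidase, 1.6-fold, and Acmsd and Kynu, both of tryptophan breakdown, fell by 0.66 and 0.39 on the log2 scale.

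**Figure D4:**
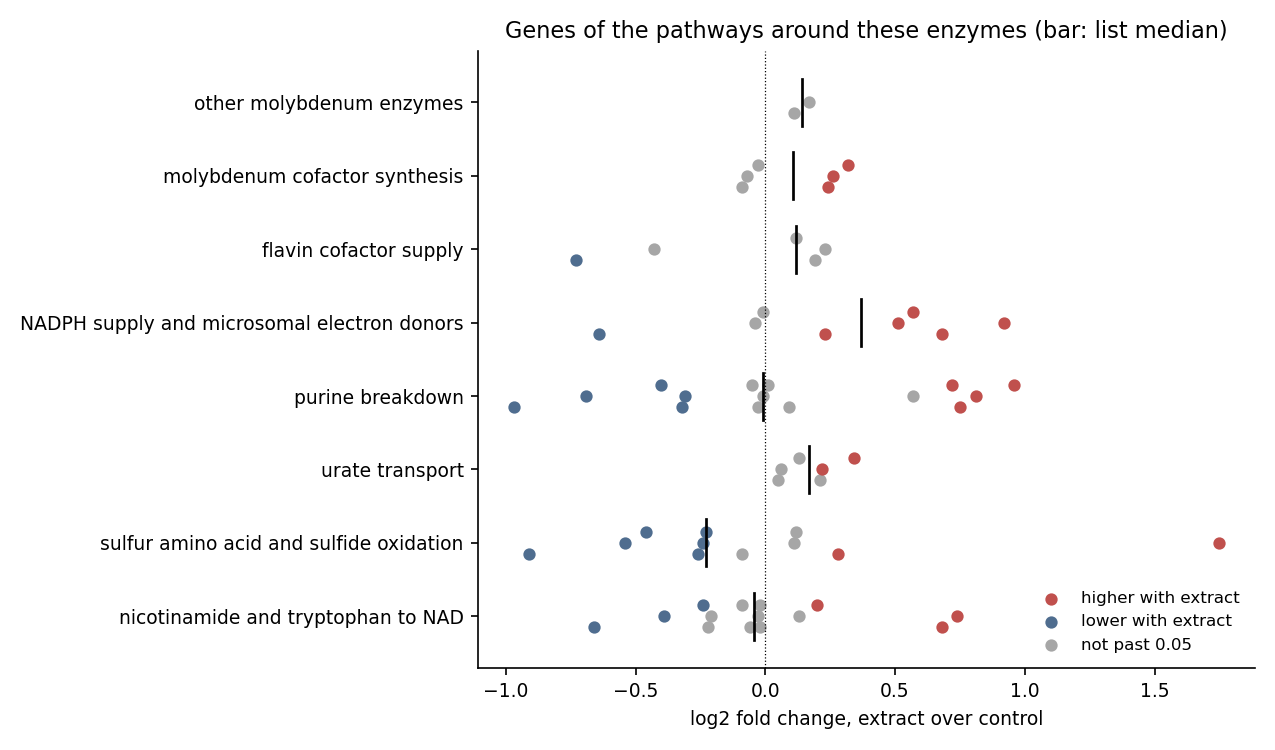
Log2 fold change (extract over control) of the 67 tested genes in 8 lists around these enzymes. Points are genes, red where higher and blue where lower with the extract at an edgeR adjusted p under 0.05 and grey otherwise, and black bars are list medians. Csad lies farthest right at 1.75, and the sulfur list has its median at -0.23.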

How the data were processed

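The deposited table holds estimated counts per gene, which are whole numbers and were used as they stand, and FPKM, which per the file headers is the second value the authors deposited for each library. Without giving roles, the submitters' processing notes list HISAT2 2.0.4, StringTie 1.3.4d, cutadapt 1.9 and edgeR. The build and any use of strand are not given in the sources used here. Low counts peak at 4 (6292 entries against 4117 at 3), so 1 read pair may add about 4 counts. The table also has 6 columns named for libraries outside the labels used here, which were left aside.

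Genes passing filterByExpr (18071) entered the quasi-likelihood test of edgeR 4.0.16 (R 4.3.3), with TMM scaling, two-sided, and Benjamini-Hochberg adjustment over all of them at a threshold of 0.05. A standard error is the log2 fold change over the root of F, and means are ± SD of 3 libraries. The alternatives were other scalings, DESeq2 1.42.0, no filter, counts divided by 4, the replicate block, limma 3.58.1 on FPKM with pseudocounts of 0.1, 0.5 and 1, and each library left out. The steps were tried on simulated counts with changes larger than those of all of the 8 genes but Aox3. Changes as small as those of the genes other than Aox3 were therefore not covered. The simulation changed far fewer genes than were called here, as many up as down, and its limma run used scaled counts, not FPKM. No annotated gene shares exon bases with any of the 8 genes, but related copies can share reads. The genes and lists were chosen with earlier results of these data known. From each list up to 4 genes with the smallest p were to be named, with Uox, Nnmt, Cdo1 and Mocos. A related gene is not reported here. G6pdx, Cyb5a, Slc52a2, Ada, Ampd3, Aprt and Nt5c were named after their values were seen.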

Additional observations from a re-analysis of the deposited data

How the results depend on the processing

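Each of the 8 genes kept a log2 fold change above 0 in the 18 other fits. Fmo4 was not called with upper-quartile factors (0.20), library totals (0.19), DESeq2 (0.25), no filter on low counts (0.24), the replicate block (0.24), or limma on FPKM with pseudocounts of 0.5, 0.1 and 1 (0.16, 0.17 and 0.14) or without a filter (0.16). Xdh was not called with upper-quartile factors (0.14), library totals (0.14), no filter (0.19), the replicate block (0.19), limma on FPKM with the same pseudocounts (0.13, 0.13 and 0.12), without a filter (0.13) or with TMM-scaled FPKM (0.17). With 1 library left out, the log2 fold change was 0.21 to 0.27 for Fmo4 and 0.12 to 0.22 for Xdh. With 1 library left out, the genes called numbered 3237 (without extract 2) to 4706 (without control 3) against 4870 with all libraries, the lower ones 1442 (without control 2) to 2153, and the lower genes of the 8 pathway lists 10 (without extract 1) to 15. Limma on FPKM without a filter called 1485 genes higher, against 2561 by edgeR with TMM scaling. With library totals only edgeR called 2120 higher, and limma on TMM-scaled FPKM, with its filter, called 2149 higher. Nnmt, not called in any fit, ranged in log2 fold change between -0.16 and 0.16 and was above 0 without extract 3 (0.03) and without control 3 (0.16). The deviations of libraries of the same number in the 2 groups had r of -0.117, -0.028 and -0.089. With 3 libraries per group these values cannot show whether the numbers pair the libraries, since deviations from a group mean sum to 0. With the replicate block 3746 genes were called, Fmo4 and Xdh not among them. The causes of these differences were not tested. Whether depth limited the calls of the 8 genes was not tested either. Each had at least 764 estimated counts in every library, which may stand for fewer read pairs, while Fmo6, Aox2 and Aox4 had too few counts to test.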
